A study of Mus musculus with 36 samples.

Results

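The genes of the major histocompatibility complex (MHC) and of antigen presentation were followed through heart development and into adult life. The set was every gene whose symbol in the array annotation starts with H2-, the mouse name of the MHC, together with *B2m*, *Tap1*, *Tap2*, *Tapbp*, *Cd74*, *Psmb8*, *Psmb9*, *Psmb10* and *Ciita*. This gave 31 genes of the 20701 with a gene identifier on the array, measured by 53 of 45101 probe sets, and each gene was read from its probe set with the highest mean over all arrays. In RefSeq (GRCm38.p6), 27 of the 31 lie on chromosome 17, where the mouse MHC is. The samples were whole hearts of OF1 mice, an outbred stock, with no treatment or engineered allele named: embryos sampled daily, E10.5 through E19.5, young adults of 10 weeks and old adults, whose age is 14 months in the series text and 10 months in the study's methods. There were 36 arrays, 3 for each of 12 stages. The earliest pair of stages, E10.5 with E11.5, had mixed samples only (mf1 to mf3), and each later stage had a female (f), a male (m) and a mixed (mf) sample.

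Class I molecules, a heavy chain such as *H2-K1* or *H2-D1* with the light chain beta-2 microglobulin (*B2m*), sit on most nucleated cells and show peptides from inside the cell to cytotoxic T cells. The peptides are cut by the proteasome, whose standard catalytic subunits can be replaced by the immunoproteasome subunits *Psmb8*, *Psmb9* and *Psmb10*, then pumped into the endoplasmic reticulum by the transporter *Tap1*/*Tap2* and loaded with the help of tapasin (*Tapbp*). Class II molecules (*H2-Aa*, *H2-Ab1*, *H2-Eb1*) present peptides from taken-up material, travel with the invariant chain *Cd74*, exchange peptides through H2-DM under the control of H2-O, and are made mainly by dendritic cells, B cells and activated macrophages under the transactivator *Ciita*. Interferon gamma is the classical inducer of both pathways.

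A gene was called when its adjusted p was under 1e-05, its log2 difference above 2 (more than 4-fold) and its mean above 5 in at least 1 stage, which are the study's own limits. Against young adults, 6 genes were called at every one of the 10 embryonic stages, all of them higher in the young adult: *H2-K1*, *H2-D1*, *B2m*, *Psmb8*, *Psmb9* and *H2-Aa*. Their promoters are shown because these genes shared this rise to the young adult. Each runs from 250 bases before to 50 after a listed start site (RefSeq, GRCm38.p6), written 5′ to 3′ on the strand of the gene. Capitals mark the matches, on either strand, to AANNGAAA (the core bound by interferon regulatory factors), GGGATTCCC (a core bound by NF-kB), TTCNNNGAA (the GAS element), TGACG (the X2 or CRE core) and ATTGG (the Y box, an inverted CCAAT), with overlapping matches merged. For *H2-K1*, the first of its 2 listed windows was taken; it lies within the annotated span of the gene, whose outermost start is at position 34000619, while the other 5 windows cover the outermost start of their gene.

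H2-K1, chr17:34000298-34000597, reverse strand: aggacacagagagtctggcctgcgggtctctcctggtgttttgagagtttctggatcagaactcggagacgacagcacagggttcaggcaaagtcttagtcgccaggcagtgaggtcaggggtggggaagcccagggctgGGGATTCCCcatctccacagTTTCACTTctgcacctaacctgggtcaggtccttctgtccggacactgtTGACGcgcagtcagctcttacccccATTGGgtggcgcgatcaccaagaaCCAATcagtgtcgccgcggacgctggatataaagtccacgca
H2-D1, chr17:35262844-35263143, forward strand: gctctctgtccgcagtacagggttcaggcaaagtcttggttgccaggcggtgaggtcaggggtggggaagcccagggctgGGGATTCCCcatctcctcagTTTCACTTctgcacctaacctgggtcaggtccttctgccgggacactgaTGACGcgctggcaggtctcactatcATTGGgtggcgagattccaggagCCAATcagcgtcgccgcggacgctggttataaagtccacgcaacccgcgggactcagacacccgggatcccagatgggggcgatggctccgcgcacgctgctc
B2m, chr2:122147437-122147736, forward strand: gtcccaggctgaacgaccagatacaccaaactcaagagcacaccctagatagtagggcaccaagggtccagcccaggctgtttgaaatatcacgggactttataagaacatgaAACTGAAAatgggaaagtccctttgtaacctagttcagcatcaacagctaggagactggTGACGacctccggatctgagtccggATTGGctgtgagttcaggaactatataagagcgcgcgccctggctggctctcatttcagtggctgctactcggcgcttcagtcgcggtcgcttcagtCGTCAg
Psmb8, chr17:34197945-34198244, forward strand: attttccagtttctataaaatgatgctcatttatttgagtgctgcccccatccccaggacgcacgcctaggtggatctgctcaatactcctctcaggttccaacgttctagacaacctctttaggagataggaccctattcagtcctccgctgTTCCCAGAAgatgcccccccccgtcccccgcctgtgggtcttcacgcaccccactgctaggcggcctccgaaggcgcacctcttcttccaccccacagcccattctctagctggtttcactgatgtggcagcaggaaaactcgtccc
Psmb9, chr17:34187281-34187580, reverse strand: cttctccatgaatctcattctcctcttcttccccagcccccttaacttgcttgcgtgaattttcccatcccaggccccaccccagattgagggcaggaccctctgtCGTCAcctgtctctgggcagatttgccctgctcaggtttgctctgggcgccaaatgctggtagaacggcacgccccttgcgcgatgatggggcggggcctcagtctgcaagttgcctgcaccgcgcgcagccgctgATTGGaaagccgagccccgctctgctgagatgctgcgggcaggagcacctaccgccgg
H2-Aa, chr17:34287774-34288073, reverse strand: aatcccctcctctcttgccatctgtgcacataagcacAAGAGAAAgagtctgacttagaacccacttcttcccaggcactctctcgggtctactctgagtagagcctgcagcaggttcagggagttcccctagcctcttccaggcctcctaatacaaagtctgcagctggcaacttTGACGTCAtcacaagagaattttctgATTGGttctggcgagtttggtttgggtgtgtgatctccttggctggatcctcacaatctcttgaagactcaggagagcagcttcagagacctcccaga

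In *H2-K1*, *H2-D1* and *B2m* the first bases of TGACG and of the next ATTGG stood 25 bases apart, and in *H2-Aa* 26 bases apart. *H2-K1* and *H2-D1* shared the same order of matches, with the NF-kB core first, then the interferon regulatory factor core on the reverse strand, the X2 core and the Y box. The GGGATTCCC core was found in 0.353% of all 32851 promoter windows and in these 2 genes of the 22 members with a promoter entry. AANNGAAA was found in 23.9% of all windows and in 13 of the 22 members, TGACG in 20.8% and 8 of the 22, ATTGG in 37.4% and 18 of the 22, and TTCNNNGAA in 8.30% and 3 of the 22. The *Psmb8* window held the TTCNNNGAA match alone. The shares of all are per window, while a member was counted once if any of its windows matched, so the 2 are not like for like. The *Psmb9* window overlaps that of *Tap1* by 275 of 300 bases, on the opposite strand, and both genes are counted for TGACG and ATTGG. These are matches of letters, and no binding was measured.

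All levels below are log2 values after robust multi-array averaging (RMA), and a difference is always the later stage minus the earlier one, with its standard error (SE) from limma. Levels of different genes come from different probes and were not set against each other. The cardiomyocyte markers of the list used averaged 9.89 to 10.88 over the arrays and the liver markers 3.31 to 4.02; the extraction label names liver. Spiked-in hybridization controls, which do not come from the tissue, averaged 9.68 to 10.35 at E10.5, 10.03 to 12.01 from E11.5 to E18.5, 10.97 to 11.39 at E19.5, 12.03 to 12.43 in young adults and 11.16 to 11.56 in old adults. The median gene was 0.21 higher in young adults than at E10.5 and 0.05 higher than at E19.5. Of the 31 members, 16 exceeded 5 in at least 1 stage mean, and the other 15 (stage means 1.87 to 4.32) could not be called by the limits above. The heat map of all members shows where levels were high or low through the series.

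**Figure D1:**
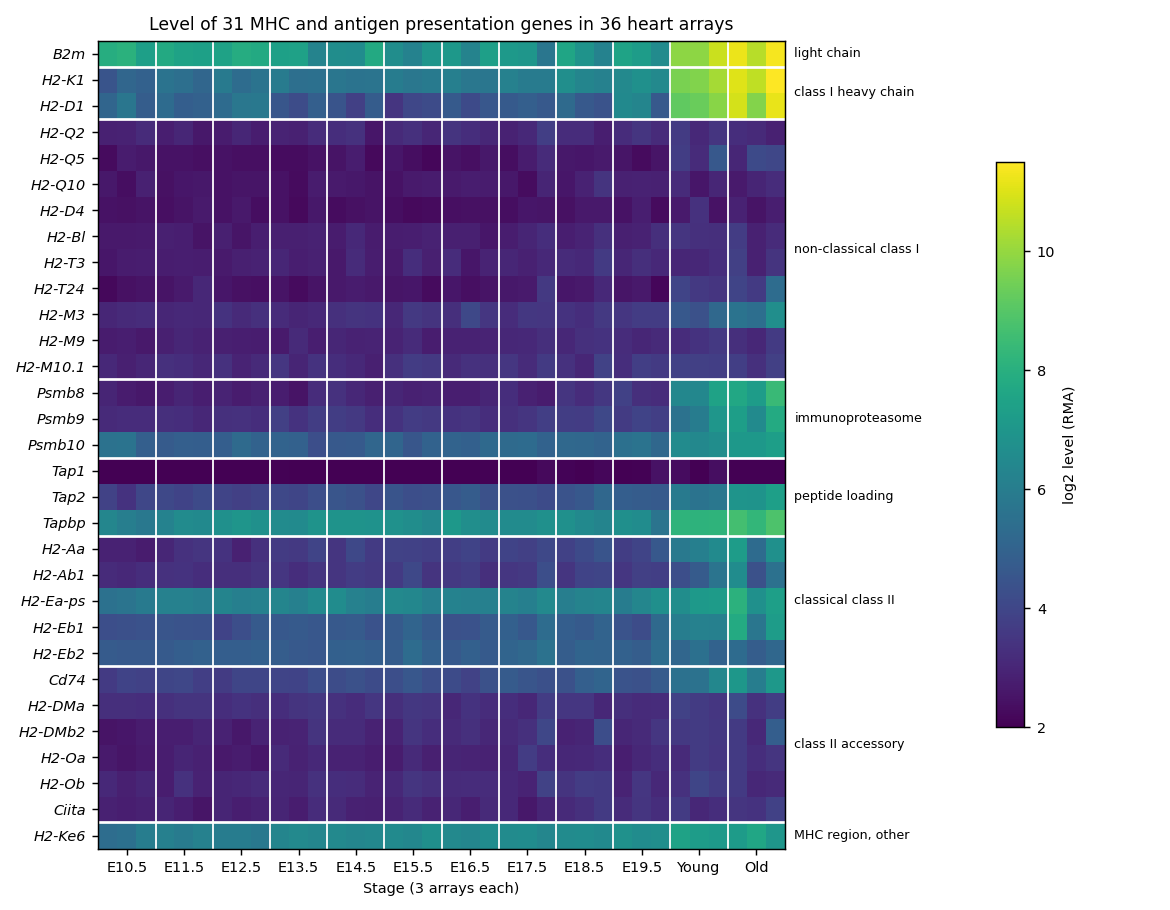
Log2 level (colour, RMA) of the 31 genes (rows, grouped by role) in the 36 arrays (columns, 3 per stage in the order f, m, mf or mf1 to mf3). The brightest cells are *B2m*, *H2-K1* and *H2-D1* in the 6 adult arrays, and 15 rows stay below 5 in every stage mean. Colours compare arrays within a row, since rows are read from different probes.

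The step from the last embryonic stage to the young adult was the large one. From E19.5 to the young adult, 6 of 31 members were called, against 0.787% of all genes. At an adjusted p under 0.05 alone, 19 of the 31 were higher in young adults (61.3%), against 14.7% of all genes, and 0 were lower, against 17.0% of all genes (limma; 0 lower and 21 higher at an unadjusted p under 0.05). The median difference of the members was 0.65 and that of all genes 0.05. With the hybridization control level as a covariate, the 6 called became 5, with *H2-Aa* lost, and the 19 became 14. The 6 genes called at E19.5 were also those called at E11.5 to E18.5, where the shares of all genes called higher in young adults were 2.33%, 2.20%, 2.12%, 1.97%, 1.97%, 1.55%, 1.49% and 1.25%, in order of stage.

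Of the class I chains, *H2-K1* read 6.48 (f), 6.77 (m) and 6.48 (mf) at E19.5, 9.58, 9.71 and 10.21 in young adults and 11.03, 10.57 and 11.61 in old adults. The 3 groups did not overlap. Young adults were 3.26 above E19.5 (SE 0.21, 9.58-fold, adjusted p = 1.96e-13). *H2-D1*, the other classical heavy chain, read 6.51, 6.32 and 4.64 at E19.5, 9.20, 9.33 and 9.83 in young adults and 10.89, 9.74 and 11.19 in old adults. Its mixed E19.5 array was far below the other 2, and the old male array fell within the young adult range. Young adults were 3.62 above E19.5 (SE 0.36, 12.3-fold, adjusted p = 2.62e-09). The light chain *B2m* read 7.49, 7.26 and 6.57 at E19.5, 9.89, 9.87 and 10.75 in young adults and 11.21, 10.48 and 11.35 in old adults, so that every adult array was above every embryonic one. Young adults were 3.06 above E19.5 (SE 0.39, 8.36-fold, adjusted p = 2.63e-07).

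Before birth the 3 chains were described from E10.5 to E19.5, with no test of a difference between them. The mean of *H2-K1* went from 4.86 ± 0.35 (SD, n = 3) in the E10.5 arrays to 6.58 ± 0.17 in those of E19.5. Its E10.5 and E19.5 arrays did not overlap (difference 1.72, SE 0.21, adjusted p = 1.12e-07). The other 2 probe sets of *H2-K1* gave 0.37 (adjusted p = 0.359) and 0.89 (adjusted p = 0.00247). *H2-D1* averaged 5.21 ± 0.48 in the E10.5 arrays, 5.63 ± 0.27 in those of E12.5, 3.89 ± 0.37 in those of E15.5, its lowest stage, and 5.83 ± 1.03 in those of E19.5. The 3 arrays of E12.5 (5.32 to 5.79) lay above the 3 of E15.5 (3.47 to 4.17), which is a description of the 2 extremes and was not tested. Means of *B2m* were 7.80 ± 0.38 (E10.5), 6.61 ± 0.37 (E15.5) and 7.11 ± 0.48 (E19.5), and its embryonic arrays scattered more than those of most genes (pooled SD 0.54, the 99.5th percentile of all genes). At each embryonic stage the array with the lowest *B2m* level had the highest mean of the hybridization controls. In the mixed E17.5 array *B2m* read 5.72 and the controls averaged 12.01. The part of this array-level signal in the scatter was not tested. Neither *H2-D1* (difference 0.61, SE 0.36, adjusted p = 0.162) nor *B2m* (−0.69, SE 0.39, adjusted p = 0.148) differed past the threshold between E10.5 and E19.5. A second *B2m* probe set, at low levels (2.84 to 3.46 at E10.5), gave 0.24, in the other direction (adjusted p = 0.403).

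**Figure D2:**
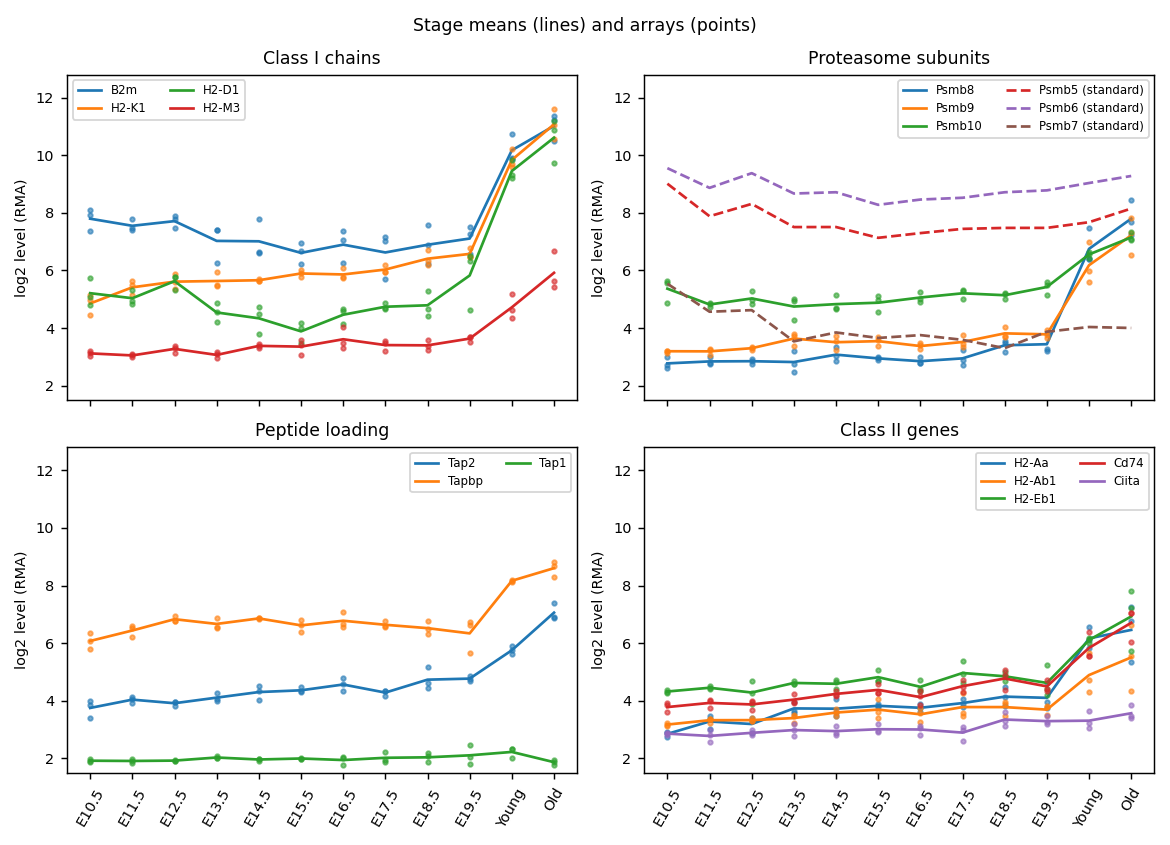
Log2 level (RMA, y axis) against stage (x axis) for class I chains, proteasome subunits, peptide loading genes and class II genes; lines join stage means, points are single arrays, and dashed lines are standard proteasome subunits (means only). *H2-K1*, *H2-D1*, *B2m*, *Psmb8* and *Psmb9* step up between E19.5 and the young adult, and *Psmb5*, *Psmb6* and *Psmb7* do not. The *Psmb7* line is at a low level at these stages.

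The 10 other class I genes on the array, including 3 annotated as pseudogenes, were mostly read at low levels. Only *H2-M3* exceeded 5 in a stage mean (5.92 in old adults). Of the 10, 3 had a higher mean in young adults than at E19.5 at an adjusted p under 0.05. *H2-M3*, which presents peptides that start with formylmethionine, read 3.51, 3.71 and 3.69 at E19.5, 4.62, 4.35 and 5.20 in young adults and 5.64, 5.44 and 6.68 in old adults. The 3 groups of *H2-M3* arrays did not overlap, and young adults were 1.09 above E19.5 (SE 0.22, adjusted p = 0.000288). *H2-Q5* (difference 1.39, SE 0.25) and *H2-T24* (1.22, SE 0.27) stayed under 4.4 in every stage mean. *H2-Q2*, *H2-Q10*, *H2-D4*, *H2-Bl*, *H2-T3*, *H2-M9* and *H2-M10.1* differed by −0.02 to 0.34 and did not pass.

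Of the immunoproteasome subunits, *Psmb8* read 3.82, 3.29 and 3.21 at E19.5, 6.39, 6.38 and 7.48 in young adults and 7.70, 7.24 and 8.46 in old adults. Young adults were 3.31 above E19.5 (SE 0.25, 9.92-fold, adjusted p = 5.67e-12). *Psmb9* read 3.65, 3.93 and 3.77 at E19.5, 5.59, 5.99 and 6.97 in young adults and 7.31, 6.53 and 7.82 in old adults. For both genes all adult arrays were above all embryonic ones, and the old male array lay below the mixed young adult array. Young adults were 2.40 above E19.5 for *Psmb9* (SE 0.24, 5.28-fold, adjusted p = 2.77e-09). *Psmb10*, at 5.43 at E19.5 and 6.56 in young adults, rose by 1.13 (SE 0.19, adjusted p = 3.17e-05), which is under the 4-fold limit. The standard subunits that these 3 replace did not pass: *Psmb5* differed by 0.20 (SE 0.42, adjusted p = 0.775), *Psmb6* by 0.26 (SE 0.32, adjusted p = 0.603) and *Psmb7* by 0.16 (SE 0.31, adjusted p = 0.742). *Psmb7* was read at a low level, 3.87 at E19.5 and 4.04 in young adults, where RMA compresses differences. Between E10.5 and E19.5, *Psmb5* fell by 1.53, *Psmb6* by 0.77 and *Psmb7* by 1.67 (adjusted p = 0.00388, 0.0497 and 6.4e-05), while *Psmb8* rose by 0.67 and *Psmb9* by 0.59 (adjusted p = 0.0298 and 0.0464) and *Psmb10* differed by 0.06 (adjusted p = 0.813).

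In peptide loading, *Tapbp* had embryonic stage means of 6.08 to 6.86 and read 8.17, 8.13 and 8.19 in young adults, 1.82 above E19.5 (SE 0.20, adjusted p = 1.39e-08). *Tap2* read 4.84, 4.76 and 4.70 at E19.5, 5.88, 5.63 and 5.75 in young adults and 6.92, 6.88 and 7.38 in old adults. Its 3 groups did not overlap, its embryonic mean was 1.02 higher at E19.5 than at E10.5 (SE 0.17, adjusted p = 1.49e-05), and young adults were 0.98 above E19.5 (SE 0.17, adjusted p = 3.44e-05). *Tap1* cannot be followed here: both probe sets annotated to it stayed near 2 in every stage, with means of 1.87 to 2.23 for the one used.

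Class II genes rose as well, by amounts that differed between genes and probe sets. *H2-Aa*, the alpha chain of I-A, read 3.74, 3.95 and 4.62 at E19.5, 5.85, 6.11 and 6.54 in young adults and 7.26, 5.34 and 6.78 in old adults. Young adults were 2.06 above E19.5 (SE 0.29, 4.18-fold, adjusted p = 1.17e-06), and the old male array lay below all 3 young adult arrays. Of the 5 classical class II genes, 4 were higher in young adults than at E19.5 at an adjusted p under 0.05, the others being *H2-Eb1* by 1.49 (SE 0.30), *H2-Ab1* by 1.20 (SE 0.32) and *H2-Ea-ps*, the alpha chain of I-E and a pseudogene in the reference strain, by 0.65 (SE 0.22). *H2-Eb2* differed by 0.17 (SE 0.17, adjusted p = 0.48). The invariant chain *Cd74* read 4.43, 4.35 and 4.73 at E19.5, 5.55, 5.56 and 6.39 in young adults and 7.03, 6.03 and 7.06 in old adults, with young adults 1.34 above E19.5 (SE 0.22, adjusted p = 2.09e-05). Of the peptide exchange genes, *H2-DMa* (0.45, SE 0.17, adjusted p = 0.0383) and *H2-Oa* (0.40, SE 0.15, adjusted p = 0.0437) passed, both with stage means under 4, and *H2-DMb2* (0.38, SE 0.30) and *H2-Ob* (0.50, SE 0.20) did not. *Ciita*, the transactivator of class II, was at 3.29 at E19.5 and 3.31 in young adults (difference 0.02, 95% interval −0.32 to 0.36). Its stage means were low throughout, 2.78 to 3.57. A second *Ciita* probe set differed by 0.44 from E19.5 (adjusted p = 0.0567) and by 0.78 from E10.5 (adjusted p = 0.000357). A flat course of *Ciita* was thus not shown. *H2-Ke6* carries an H2 symbol but encodes a steroid dehydrogenase, and it rose by 1.07 from E10.5 to E19.5 (SE 0.15) and by 0.57 from there to the young adult (SE 0.15).

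Over the whole span from E10.5 to the young adult, 9 of 31 members were called, against 2.64% of all genes. The 6 genes above were joined by *Tapbp* (2.09, SE 0.20), *Cd74* (2.05, SE 0.22) and *Tap2* (2.00, SE 0.17), which lie just past the limit of 2, while *H2-Eb1* (1.79) and *H2-Ab1* (1.72) lie just under it. *H2-K1* had the largest difference of the members, 4.98 (SE 0.21, 31.6-fold, adjusted p = 1.19e-18). At an adjusted p under 0.05, 29 of the 31 were higher in young adults, against 38.6% of all genes, and 0 were lower, against 28.5% (limma; 0 lower at an unadjusted p under 0.05). With the hybridization control level as a covariate the 9 called became 5 (*B2m*, *H2-D1*, *H2-K1*, *Psmb8* and *Psmb10*) and the 29 became 11. The control level moved with stage, and its part in the result was not tested further.

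Within the embryo the change was smaller. From E10.5 to E19.5, 0 of 31 members were called, against 1.00% of all genes called higher at E19.5. At an adjusted p under 0.05, 13 were higher at E19.5, against 26.2% of all genes, and 0 were lower, against 23.6% (limma; 15 higher and 0 lower at an unadjusted p under 0.05). The largest differences were *H2-K1* (1.72), *H2-Aa* (1.25), *H2-Ke6* (1.07) and *Tap2* (1.02). The count of 13 depended on the scaling: it was 6 after quantile normalization and 25 after centring on the well-expressed probe sets, with 0 lower in both.

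**Figure D3:**
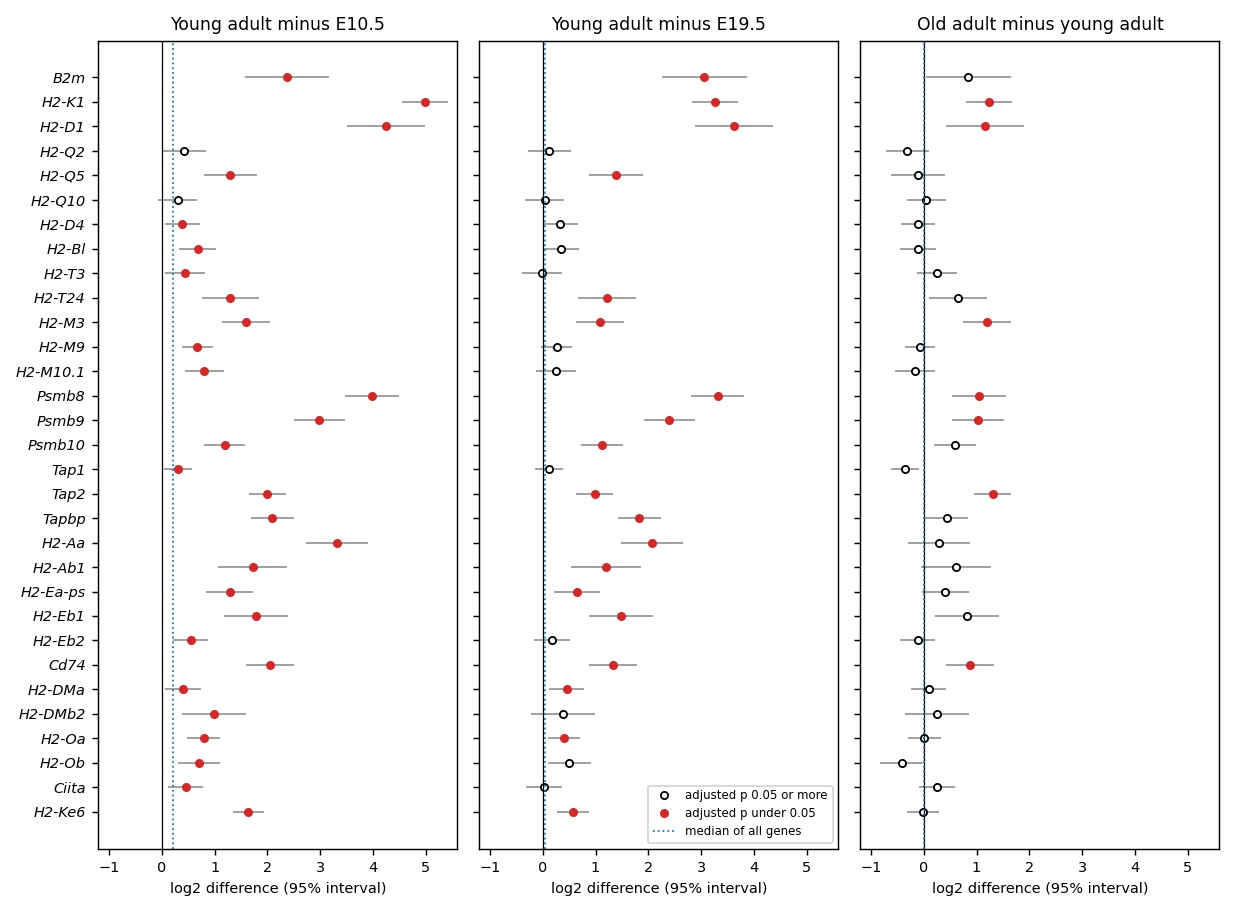
Log2 difference (x axis, later minus earlier) with its 95% interval for each of the 31 genes in the step from E10.5 to the young adult, from E19.5 to the young adult and from the young to the old adult; filled points have an adjusted p under 0.05 and the dotted line is the median of all genes. *H2-K1*, *H2-D1*, *Psmb8* and *H2-Aa* lie farthest right in the first panel, and 7 points are filled in the third.

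From the young to the old adult, the median difference of the members was 0.26 and that of all genes −0.00066, with 21 of the 31 members above 0. None of the 31 members passed the 4-fold rule (0 called, against 0.00483% of all genes called higher, which is 1 gene). At an adjusted p under 0.05, 7 of the 31 were higher in old adults, against 4.46% of all genes: *Tap2* by 1.30 (SE 0.17, 2.47-fold, adjusted p = 2.16e-05), *H2-K1* by 1.24 (SE 0.21, 2.35-fold, adjusted p = 0.000634), *H2-M3* by 1.20 (SE 0.22, 2.29-fold, adjusted p = 0.00115), *H2-D1* by 1.16 (SE 0.36, adjusted p = 0.0479, past the threshold in only 4 of 14 alternative settings), *Psmb8* by 1.05 (SE 0.25, adjusted p = 0.00963), *Psmb9* by 1.03 (SE 0.24, adjusted p = 0.00818) and *Cd74* by 0.87 (SE 0.22, adjusted p = 0.0156). None was lower, against 3.13% of all genes (limma; 12 higher and 2 lower at an unadjusted p under 0.05). *Tap2*, *H2-K1* and *H2-M3* kept an adjusted p under 0.05 whichever of the 6 adult arrays was left out. The count was 4 without the young female or the young male array, 3 without the old mixed array, 12 without the old male array, and 0 when the 6 adult arrays were fitted alone. *B2m* (0.85, SE 0.39, adjusted p = 0.189) and the classical class II genes (−0.12 to 0.82) did not pass on the probe sets used here. A second probe set passed for *B2m* (0.98, adjusted p = 0.0109), for *H2-Ea-ps* (1.05, adjusted p = 0.00441) and for *H2-Aa*. Among the genes listed as higher, *Psmb8* gave −0.45 on its second probe set (adjusted p = 0.0638). Other *H2-K1* probe sets gave 1.34 (adjusted p = 0.0131) and 0.27 (adjusted p = 0.509). Those of *H2-D1* gave 0.73, 0.10 and 0.08, and none passed (adjusted p = 0.439 to 0.871).

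For many members the adult arrays of one stage differed from each other more than for most genes. The pooled adult SD was 0.94 for *H2-Ab1* (the 99.5th percentile of all genes), 0.76 for *H2-Eb1* (99.0th) and 0.75 for *H2-Aa* (98.9th), and *H2-T24*, *Psmb9*, *H2-Q5*, *H2-DMb2*, *Psmb8* and *H2-D1* lay between the 96.7 and 98.2 percentiles. *H2-Oa* (percentile 44.0), *H2-Eb2* (56.3) and *Ciita* (58.4) lay near the middle. Others lay lower: *Psmb10* (11.9), *Tap1* (13.3), *Tapbp* (29.6) and *Tap2* (38.7), with *H2-M10.1* between *Tapbp* and *Tap2*. The pooled adult SD had a median of 0.34 over the members and 0.25 over all genes. In old adults *H2-Ab1* read 6.63 in the female array, 4.34 in the male and 5.55 in the mixed one, and *H2-Eb1* read 7.81, 5.73 and 7.24 in the same order. The pan-leukocyte markers (7 genes) averaged 6.74, 5.98 and 6.79 in those arrays, with the male array lowest as for these genes, while the macrophage and monocyte markers averaged 6.81, 6.48 and 6.17, lowest in the mixed array. In the young adult arrays the pan-leukocyte markers were within 5.47 to 5.59, while *H2-Ab1* read 4.29, 4.74 and 5.65. With 1 array of each kind per stage, a difference between old animals and a difference between sexes cannot be told apart.

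Several genes have more than 1 probe set, and these did not always move alike. Of all 53 probe sets, 34 were higher in young adults than at E19.5 at an adjusted p under 0.05 and 0 were lower. All 3 probe sets of *H2-K1* and 3 of the 4 of *H2-D1* have the suffix _x_at, which marks probes shared with similar sequences, so the near-identical class I heavy chains may be read in part by each other's probes. Read from its one probe set without that suffix, *H2-D1* was 2.12 higher in young adults than at E19.5 (adjusted p = 0.00281), which is past 4-fold but not past the limit on p. That probe set read 4.30, 4.77 and 5.06 in young adults and 2.62, 6.84 and 6.84 in old adults, so the old female array lay within the E19.5 range (2.38 to 2.89) while the main probe set of the gene read 10.89 there. A second *H2-Aa* probe set, also with that suffix, had a larger step, 3.84 from E19.5 to the young adult and 1.67 from there to the old adult (adjusted p = 0.00469), where the probe set used above showed 0.29. From E19.5 to the young adult, a second *H2-Ea-ps* probe set stepped by 2.94 (adjusted p = 8.59e-12) and a second *H2-Ab1* probe set by 2.09, against 0.65 and 1.20 for those used above. Their remaining probe sets stepped by 0.26 and 0.99 in that order. Smaller steps came from second probe sets of *Psmb8* (1.05, against 3.31), *B2m* (2.00, against 3.06) and *Tapbp* (0.46, against 1.82). Other *H2-K1* probe sets stepped by 3.50 and 1.04, against 3.26. The remaining *H2-D1* probe sets stepped by 1.01 and 0.90, against 3.62, and those of *H2-Aa* by 3.08 and 0.34, against 2.06. OF1 mice are outbred and H2 genes vary between mice, but the alleles of these animals were not analysed here.

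**Figure D4:**
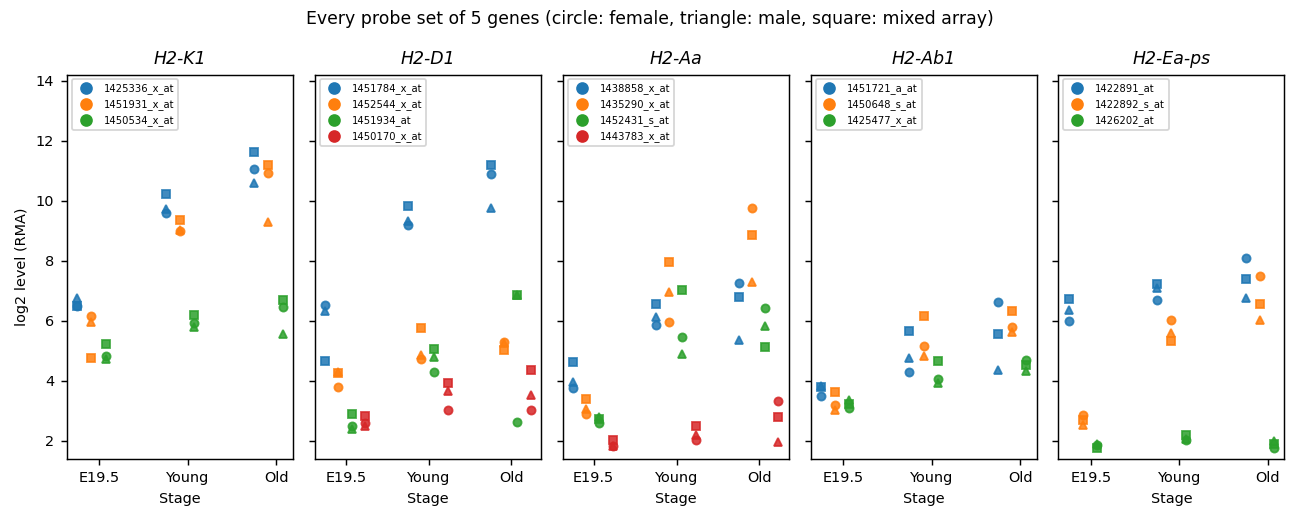
Log2 level (RMA, y axis) of every probe set (colours) of *H2-K1*, *H2-D1*, *H2-Aa*, *H2-Ab1* and *H2-Ea-ps* in each array (circle female, triangle male, square mixed) at E19.5, young adult and old adult. The green *H2-D1* probe set is at 2.62 in the old female array and at 6.84 in the other 2.

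The other genes of the pathway were taken as lists. At an adjusted p under 0.05 (limma), 14.7% of all genes were higher and 17.0% lower in young adults than at E19.5. Of all genes, 0.787% were called higher in that step. From the young to the old adult, 4.46% of all genes were higher and 3.13% lower at an adjusted p under 0.05. Of 17 genes of class I transactivation and interferon gamma signalling, 6 were higher and 3 lower in young adults than at E19.5 at an adjusted p under 0.05, and 0 were called. *Nlrc5*, the transactivator of class I genes, rose by 1.45 (SE 0.32, adjusted p = 0.000748) and *Irf1*, a factor induced by interferon gamma, by 1.32 (SE 0.27). The 3 that were lower, *Nfya* (−0.79), *Nfyb* (−0.63) and *Nfyc* (−1.18), encode the factor that binds the CCAAT box. *Nlrc5* was also higher in old than in young adults, from 4.23 ± 0.89 to 6.06 ± 0.98 (difference 1.83, SE 0.32, adjusted p = 0.00082), and *Irf1* (0.46, adjusted p = 0.309) did not pass. *Irf8* (0.67) and *Jak2* (0.42), which had not passed between E19.5 and the young adult, were higher in old adults. Of 9 peptide loading partners, 4 were higher than at E19.5, among them the trimming peptidase *Erap1* (1.47) and the chaperone *Canx* (1.43), and 1 was lower (*Sec61a1*, −1.36). Of 8 proteasome activator and standard catalytic subunits 1 was higher, the activator subunit *Psme2* (1.96), and 0 were lower. Of 9 genes of endosomal processing 4 were higher, with *Ctsh* called (2.15). Of 16 interferon-stimulated genes 15 were higher and 6 were called, the largest being *Gbp2* (4.58) and *Iigp1* (3.95). In old against young adults 8 of the 16 were higher, led by *Gbp6* (1.60) and *Irgm2* (1.58), and 0 were lower.

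Markers of several cell types moved with the adult step. The shares of all genes at an adjusted p under 0.05 (limma) were 14.7% higher and 17.0% lower in that step. Those called were 0.787% higher and 1.02% lower. From the young to the old adult, 4.46% of all genes were higher and 3.13% lower at an adjusted p under 0.05. Of 15 macrophage and monocyte markers, 12 were higher in young adults than at E19.5 and 6 were called, and the list averaged 4.67 to 4.81 over the E19.5 arrays and 6.44 to 6.55 over the young adult arrays. Of 7 pan-leukocyte markers 6 were higher, with an average of 4.23 to 4.49 at E19.5. For B lymphocytes 0 of 7 markers, for T and NK lymphocytes 1 of 9 and for dendritic cells 1 of 7 were higher. None of these shares exceeded that of all genes. Of the other cell types, 3 of 5 adipocyte markers were higher and 2 called, 3 of 7 endothelial markers were higher, 4 of 6 fibroblast markers were lower with 1 called and 1 was higher, and 4 of 6 cardiomyocyte markers were lower. From the young to the old adult the macrophage list did not move together: 0 of 15 passed in either direction, with averages of 6.17 to 6.81 in old adults. Of the pan-leukocyte markers 5 of 7 were higher in old adults, led by *Ptprc* (2.00), the leukocyte common antigen, and of the B lymphocyte markers *Ms4a1* alone (2.15). Of the dendritic cell markers 3 of 7 were higher (*Cd83*, *Zbtb46* and *Xcr1*), of the T and NK markers 1 of 9 was lower, 2 of 7 endothelial markers were higher, 2 of 6 fibroblast markers were lower and 1 of 6 cardiomyocyte markers was higher. In these whole hearts, more cells of a type and more RNA per cell cannot be told apart, and the part of any of these cell types in the members' change was not tested.

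**Figure D5:**
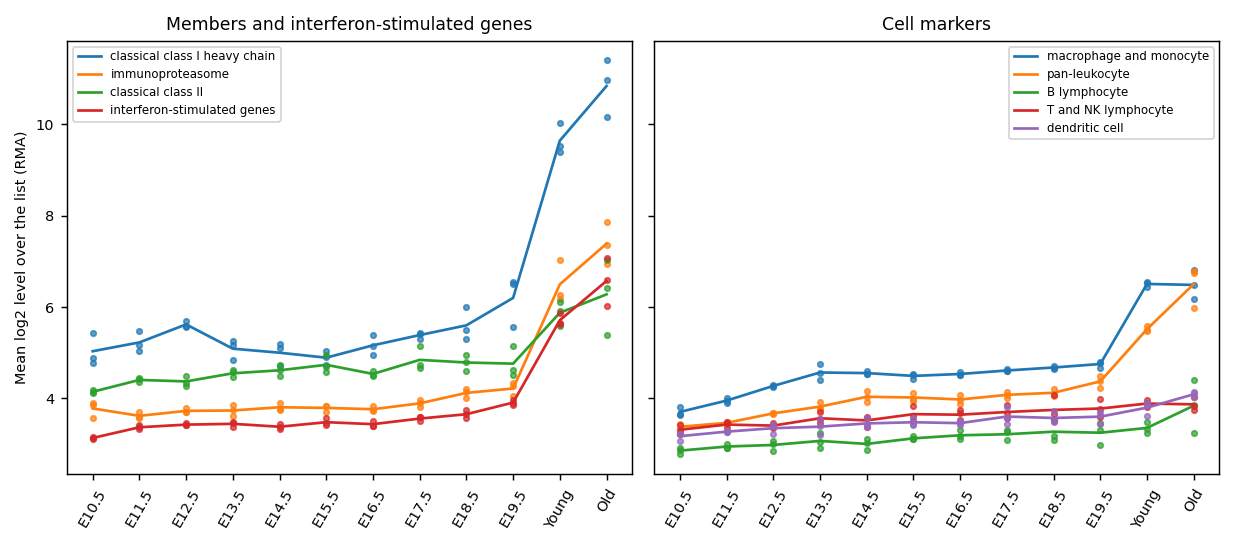
Mean log2 level over each list (RMA, y axis) against stage (x axis), for 3 groups of members with the interferon-stimulated genes (left) and for marker lists of blood cells (right); lines join stage means and points are arrays. The macrophage list steps up from at most 4.81 at E19.5 to at least 6.44 in young adults and spans 6.17 to 6.81 in old adults, where the class I heavy chains are at 10.16 to 11.40.

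Male and female hearts were compared over the 9 stages from E13.5 to the old adult, as pairs within a stage. None of the 31 members differed at an adjusted p under 0.05 (limma), against 0.0435% of all genes, which is 9 genes. At an unadjusted p under 0.05 there were 5 members (16.1%, against 7.89% of all genes), each lower in males: *B2m* by 0.35 (lower in 8 of 9 pairs, adjusted p = 0.473), *H2-D1* by 0.30 (6 of 9), *Psmb8* by 0.26 (9 of 9), *H2-K1* by 0.20 (7 of 9) and *Tapbp* by 0.16 (8 of 9). No difference between the sexes was thus shown at this number of pairs. The hybridization controls averaged higher in the male than in the female array of every pair except the old adult one (11.16 against 11.38). The part of this array-level signal in the lower male values was not tested.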

How the data were processed

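Hearts were profiled on Affymetrix Mouse430_2 arrays. The authors summarised the probes by RMA, in R/Bioconductor per the methods, while the submitters' processing notes name Affymetrix Expression Console and Partek 6.6. The deposited values are log2 levels, normalized over all arrays. RMA compresses differences at low levels, and arrays hold no read depth, so the number of arrays (3 per stage) limits the precision.

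One limma model (R 4.3.3, limma 3.58.1) with 12 stage means was fitted to 45101 probe sets and 36 arrays, with Benjamini-Hochberg adjustment over all probe sets in each comparison. It was tested on simulated data. Calls used an adjusted p under 1e-05, a log2 difference above 2 and a stage mean above 5. Shares of all genes were taken over 1 probe set per gene, chosen as for the members. Sexes were compared with stage as a block, over 18 arrays of 9 stages (E13.5 to old adult, as in the methods). Per the methods, the 3 samples of a stage are biological replicates from different animals. Whether they came from separate litters is not given in the sources used here.

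All 31 members are named. Of the other lists, at most 4 with the largest change are named per comparison (with *Nfya* to *Nfyc*, *Irf8*, *Jak2* and *Sec61a1* added after their values were seen; 1 gene of the rule is not reported here), plus *Nlrc5*, *Irf1* and *Psmb5* to *Psmb7*. Members and lists were chosen with earlier results of these data known. Promoters were read from RefSeq (GRCm38.p6) for 22 of 31 members. Alternatives covered scaling, filters, thresholds, probe set choice, the sex label, the control level, the model's samples and leaving out each array.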

Additional observations from a re-analysis of the deposited data

Results flagged for a closer look

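There were 2 members that moved in opposite directions from young to old adults in the female and the male arrays, by more than 0.5 in each. *H2-Aa* was 1.42 higher in the old than in the young female array and 0.77 lower in the males (−0.77). *H2-Q5* was lower by 0.72 in the female array (−0.72) and 0.98 higher in the males, at levels under 5. Each is 1 array against 1, and the difference between the sexes was not tested.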

How the results depend on the processing

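Under the other settings no member was lower at the later stage at an adjusted p under 0.05 after quantile normalization or centring. The 9 members called between E10.5 and the young adult became 5 with only those 6 arrays fitted, 5 with the control level as a covariate and 17 at an adjusted p under 0.05 with a log2 difference above 1. The 29 at an adjusted p under 0.05 became 16 with the expression filter before the model, which tests fewer genes, and 11 with the control level. The 6 called from E19.5 became 2 with those arrays alone, 5 with the control level and 14 at the looser limits. They became 3 without probe sets ending in _x_at or _s_at, which leaves out *H2-Aa* and *H2-K1*. For the old adult, 0 called became 6 at the looser limits, and 7 at an adjusted p under 0.05 became 0 with those arrays alone. From E10.5 to E19.5, 0 called became 1 after centring and 4 at the looser limits, and 13 became 6 after quantile normalization, 25 after centring and 5 with the control level. Centring raised the median gene by 0.53, 0.18 and 0.34 in the comparisons of E10.5 and E19.5 with the young adult and of E10.5 with E19.5, and lowered it between adults (−0.14). Where not stated, the cause was not tested.

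Leaving out 1 array gave 7 to 8 called and 24 to 27 at the looser p for E10.5 against young adult, 4 to 6 and 16 to 19 for E19.5, 0 and 3 to 12 for old adults, and 0 and 6 to 12 for E10.5 against E19.5. The last was 7 without E10.5 mf1 or mf3, 6 without mf2 and 8 without E19.5 mf. The male against female count stayed at 0 without any 1 stage.

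With the sex label as a replicate block, the counts were 8, 6, 0 and 0 called and 29, 19, 7 and 15 at an adjusted p under 0.05, and without the block for the sexes 0. Arrays with the same label deviated together (correlation over 0.1) in 51 of 135 pairs of stages, with correlations from −0.56 to 0.58. The count expected without pairing was not worked out, so this does not decide whether the label pairs the samples.

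Reversed values were −0.24 for *H2-DMa* (E19.5 against young adult, probe set of highest variance) and, with the control level for E10.5 against young adult, −0.0747 for *H2-Bl*, −0.000619 for *H2-D4*, −0.92 for *H2-DMb2*, −0.0374 for *H2-Ob* and −0.18 for *H2-Eb2*, none past the threshold. *H2-D1* lay at the edge of the threshold for the old adult and was lost under 10 of its 14 alternatives.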
